A study of Mus musculus with 4 samples.

Results

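The mitotic cyclins and spindle genes comprised 10 genes chosen by name: Ccna2, Ccnb1, Ccnb2, Cdk1, Cdc20, Bub1b, Kif11, Nusap1, Top2a and Mki67. All 10 had a row among the 10327 genes measured by ribosome profiling in epidermal keratinocytes of newborn mice at postnatal day 0. Ribosome profiling sequences the stretches of mRNA that ribosomes shield from RNase, called footprints, and a gene's level is the part of a library's footprints that it takes, which mixes mRNA level with ribosome density. The control group (Ctrl, 2 libraries) had the genotype K14Cre, Mettl14F/+, with a single floxed copy of Mettl14. The knockout group (cKO, 2 libraries) had the genotype K14Cre, Mettl14F/F, with both copies floxed. Both groups carried the keratin 14-driven Cre, which is active in basal keratinocytes, so the controls are Cre-positive and may have lost the floxed copy. Mettl14 encodes a core subunit of the methyltransferase that places N6-methyladenosine (m6A) in mRNA. No treatment was given. The labels do not tell whether replicate libraries are from separate animals or from pools, so p-values measure the spread between these libraries, which may be technical.

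Cells enter mitosis when cyclin-dependent kinase 1, bound to cyclin A2 and then to B-type cyclins, becomes active. They leave it when the anaphase-promoting complex, switched on by its partner CDC20, marks cyclin B and securin for destruction. Until all chromosomes are attached to the spindle, the checkpoint protein BUBR1, the product of Bub1b, helps to hold CDC20 in check. KIF11 is the motor that pushes spindle poles apart, NUSAP1 bundles spindle microtubules near chromosomes, TOP2A untangles DNA, and Ki-67, the product of Mki67, coats mitotic chromosomes and marks cycling cells. In the epidermis division takes place mainly in the basal layer, and cells that move up to the suprabasal layers stop dividing and differentiate.

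Most of these genes are known to be switched on together late in the cell cycle through promoter elements called the cell cycle genes homology region (CHR, letters TTTGAA), which the MuvB complex binds, and CCAAT boxes, which NF-Y binds. A variant of the CHR reads TTCGAA. RefSeq promoters of build GRCm38.p6, from 250 bases before to 50 after the annotated start, were matched by symbol for 9 of the 10 genes, all but Ccna2. Both strands were searched. The CHR letters were found in 7 of the 9 promoters and in 17.9% of 32851 promoter windows of the same 300 bases. The CCAAT box was found in 8 of the 9 and in 37.4% of all windows, and at least 2 copies in 6 of the 9 and in 11.7% of all. Both elements were present in 7 of the 9 promoters, against 6.95% of all, and the variant in the promoters of Bub1b and Top2a alone, against 1.56% of all. No CHR match overlapped a CCAAT box in the promoters printed here. These letter matches describe the windows and are not measured binding sites. The promoters below were chosen to show how the arrangement differs between the genes. Ccnb2 (chr9:70421505-70421804 on the minus strand) holds 3 CCAAT boxes and 2 CHR copies. Cdk1 (chr10:69352863-69353162 on the minus strand) and Cdc20 (chr4:118437294-118437593 on the minus strand) have a CHR copy starting 15 and 18 bases before the start. Ccnb1 (chr13:100786437-100786736 on the minus strand) has 2 CCAAT boxes and no match to TTTGAA or TTCGAA. Nusap1 (chr2:119618048-119618347 on the plus strand) has no match to any of the 3. Other letters were not searched. Each is written 5′ to 3′ on the gene's strand with the CHR, its variant and the CCAAT box, on either strand, in capitals:
Ccnb2: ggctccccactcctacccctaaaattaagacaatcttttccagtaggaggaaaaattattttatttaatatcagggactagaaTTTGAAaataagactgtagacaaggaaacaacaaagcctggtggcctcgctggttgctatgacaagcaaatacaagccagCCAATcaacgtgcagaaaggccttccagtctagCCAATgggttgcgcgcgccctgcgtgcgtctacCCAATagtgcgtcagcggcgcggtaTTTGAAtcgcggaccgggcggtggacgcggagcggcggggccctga
Cdk1: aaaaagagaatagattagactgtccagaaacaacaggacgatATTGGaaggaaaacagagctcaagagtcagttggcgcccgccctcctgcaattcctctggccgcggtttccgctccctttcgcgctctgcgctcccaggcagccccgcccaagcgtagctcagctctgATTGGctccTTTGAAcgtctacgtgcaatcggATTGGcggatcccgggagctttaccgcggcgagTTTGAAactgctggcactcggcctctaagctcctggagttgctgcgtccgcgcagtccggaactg
Cdc20: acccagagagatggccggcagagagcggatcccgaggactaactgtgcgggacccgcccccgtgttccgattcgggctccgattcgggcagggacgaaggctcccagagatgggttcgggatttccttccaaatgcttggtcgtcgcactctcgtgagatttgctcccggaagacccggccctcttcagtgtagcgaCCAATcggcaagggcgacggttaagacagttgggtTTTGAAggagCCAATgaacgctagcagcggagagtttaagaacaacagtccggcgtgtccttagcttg
Ccnb1: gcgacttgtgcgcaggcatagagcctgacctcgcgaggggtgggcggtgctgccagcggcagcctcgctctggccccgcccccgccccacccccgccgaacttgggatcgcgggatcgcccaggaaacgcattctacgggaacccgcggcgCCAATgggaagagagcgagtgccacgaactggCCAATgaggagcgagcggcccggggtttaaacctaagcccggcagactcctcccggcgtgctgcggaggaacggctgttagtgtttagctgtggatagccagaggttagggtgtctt
Nusap1: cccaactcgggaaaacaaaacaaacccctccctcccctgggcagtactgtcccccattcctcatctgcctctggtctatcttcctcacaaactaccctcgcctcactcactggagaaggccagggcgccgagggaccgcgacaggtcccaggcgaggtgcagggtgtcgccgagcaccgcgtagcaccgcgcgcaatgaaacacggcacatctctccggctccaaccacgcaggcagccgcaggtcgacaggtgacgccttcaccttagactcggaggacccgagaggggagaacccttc

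The recovered read totals ran from 542074 in cKO 1 to 933574 in Ctrl 1, and 1 read was worth 1.07 to 1.84 CPM (reads of a gene per 1000000 reads of its library). Mettl14, the targeted gene, had 27.9 and 27.2 CPM in Ctrl against 9.22 and 5.32 in cKO. It was lower in each cKO library than in either control, with a log2 change of -1.83 ± 0.55 (SE) that did not pass the test (limma, adjusted p = 0.122). Over all genes limma called 31 genes lower in cKO (0.300% of those tested) and 38 higher (0.368%). The log2 changes of all genes had a median of -0.245, and 67.9% of all genes had a negative one. Where values of a group stand as a pair, replicate 1 comes before replicate 2, and SDs are over that pair (n = 2). Intervals on reads are exact at 95% and cover counting error only, not the spread between libraries. No molecular identifiers that tell PCR copies apart are described, so the reads may include such copies, which the intervals do not allow for.

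All 10 mitotic genes had lower mean CPM in cKO than in Ctrl, and Ccna2, encoding cyclin A2, fell past the test. Mean levels in cKO ran from 38.7% of the Ctrl mean for Ccna2 to 72.7% for Mki67. In 9 of the 10 genes, all but Ccnb1, each cKO library was lower than either control, a pattern seen in 34.1% of all genes. Limma called 1 of the 10 lower and none higher, against the 0.300% called lower among all genes. At an unadjusted p under 0.05, 8 of the 10 were lower, all but Cdk1 and Ccnb1, against 10.8% of all genes. That count was 7 after median centring and with edgeR and TMM, and 2 with DESeq2. Over all genes 1475 had such a p in either direction in the main fit. There were 1117 after median centring, 1119 with edgeR and TMM and 449 with DESeq2. The median log2 change of the 10 was -0.84, or -0.60 relative to the median of all genes. By gene, the relative log2 changes were -1.10 for Ccna2, -1.003 for Ccnb2, -0.92 for Nusap1, -0.86 for Cdc20 and -0.67 for Bub1b. They were -0.52 for Kif11, -0.46 for Top2a, -0.24 for Cdk1, -0.22 for Mki67 and -0.11 for Ccnb1. In bulk cells, fewer dividing cells and less footprint signal per dividing cell cannot be told apart. The genes were not tested as a set, and these counts are a description.

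Summed over the 10 genes, the level was 2026 and 2547 CPM in Ctrl against 1406 and 1370 in cKO. The cKO libraries lay close together and below both controls, while the controls differed from each other. Ctrl 2 exceeded Ctrl 1 in all 10 genes, with a median log2 gap of 0.51, against 0.074 over all genes. The gap between the 2 cKO libraries was smaller and less uniform. Its median was -0.18 for cKO 2 minus cKO 1, against -0.012 over all genes, and cKO 2 exceeded cKO 1 in 3 of the 10 genes. The size of the difference therefore depended on the control library. Without Ctrl 1 the median log2 change of the 10 was -1.31 and limma called 3 of them lower, Ccna2, Nusap1 and Bub1b, when 0.426% of all genes were called lower. Without Ctrl 2 the median was -0.53, against -0.224 over all genes, and the call of Ccna2 did not hold. Without cKO 1 or cKO 2 the medians were -0.87 and -0.74, against -0.239 and -0.220 over all genes. The fits without a cKO library gave no calls over all genes, so they cannot judge calls among the 10.

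**Figure D1:**
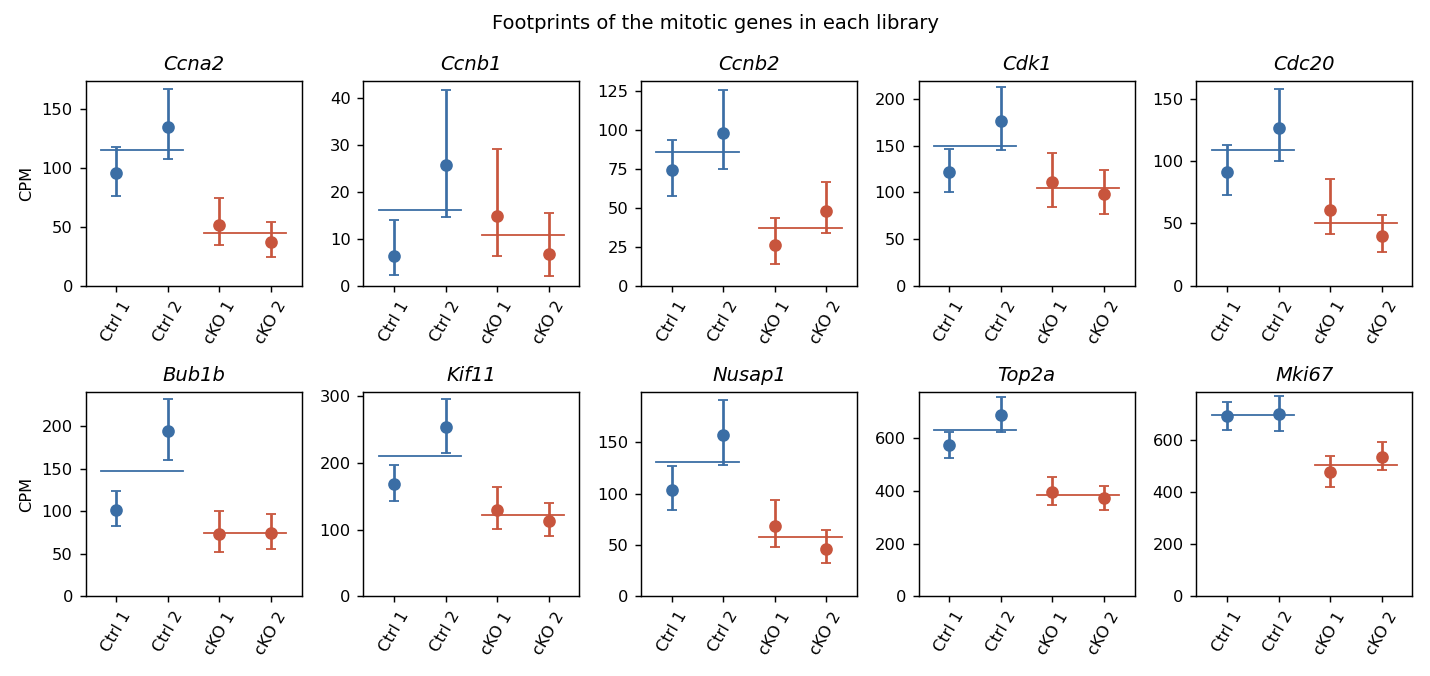
Level of each mitotic gene in CPM (y axis, from 0) in the 4 libraries (x axis), with points for libraries, bars for exact 95% Poisson intervals of the read counts and lines for group means. In 9 of the 10 panels both cKO points lie below both Ctrl points, and in Ccnb1 the groups overlap.

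Gene positions are on GRCm38. Ccna2 (ENSMUSG00000027715, chromosome 3), whose cyclin A2 partners CDK2 in S phase and CDK1 on the way into mitosis, had 95.3 and 135 CPM in Ctrl against 51.7 and 37.2 in cKO, from 89, 84, 28 and 28 reads. Each control library held more Ccna2 than either knockout library. The mean fell from 115 ± 27.8 to 44.4 ± 10.2 CPM (SD, n = 2 each), with a log2 change of -1.35 ± 0.31 (SE) and a limma adjusted p of 0.0393. The log2 change was -1.60 without Ctrl 1, -1.10 without Ctrl 2, -1.58 without cKO 1 and -1.12 without cKO 2. The call did not hold without Ctrl 2. Without cKO 1 or cKO 2 the fit gave no calls over all genes, so it cannot judge the call of Ccna2. After median centring, which allows for the shift of all genes, the log2 change was -1.14 and the limma adjusted p 0.0779. Exons of Ccna2 overlap those of Exosc9 on the opposite strand, and the strand setting of the counting is not given in the sources used here.

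Ccnb2 (ENSMUSG00000032218, chr9:70407692-70421547, minus strand), encoding cyclin B2, had 73.9 and 97.7 CPM in Ctrl against 25.8 and 47.9 in cKO. Its cKO libraries lay below both controls but differed from each other, with 14 and 36 reads. The log2 change was -1.25 ± 0.35 (SE), next in size to that of Ccna2 among the 10 genes, and did not pass the test (limma, adjusted p = 0.0945). It was -0.82 without cKO 1. Cdk1 (ENSMUSG00000019942, chr10:69335146-69352938, minus strand), the kinase that these cyclins activate, had 122 and 176 CPM in Ctrl against 111 and 98.4 in cKO. The higher cKO library was close to the lower control. Its log2 change was -0.49 ± 0.26 (limma, adjusted p = 0.398), and it was -0.75 without Ctrl 1 and -0.22 without Ctrl 2.

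Ccnb1 (ENSMUSG00000041431, chr13:100778650-100786570, minus strand), encoding cyclin B1, the main mitotic partner of CDK1, was the exception. It had 6.43 and 25.6 CPM in Ctrl against 14.8 and 6.65 in cKO, from only 6, 16, 8 and 5 reads. The groups overlapped, and the highest and lowest libraries were both controls. The log2 change was -0.36 ± 0.65 (limma, adjusted p = 0.839) and turned positive, at 0.56, without Ctrl 2. Its sequence limits what these reads can show. Of 1261 stretches of 30 bases in its coding sequence, 91.8% also occur in a transcript of another gene, mostly the processed pseudogene Ccnb1-ps. How reads that match several places were counted is not given in the sources used here.

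Cdc20 and Bub1b act against each other at the exit from metaphase. Cdc20 (ENSMUSG00000006398, chr4:118432901-118437352, minus strand), the activator of the anaphase-promoting complex, had 91.0 and 127 CPM in Ctrl against 60.9 and 39.9 in cKO. Both cKO libraries were lower than both controls. The log2 change was -1.11 ± 0.31 (SE; limma, adjusted p = 0.0945). For Cdc20 too some sequence is shared, as 34.3% of its 30-base coding stretches also occur in another gene, chiefly Gm7856, and its exons overlap Elovl1 on the opposite strand. Bub1b (ENSMUSG00000040084, chr2:118598211-118641591, plus strand), the checkpoint kinase-like protein that restrains CDC20, had 102 and 194 CPM in Ctrl against 73.8 and 74.5 in cKO. Its cKO libraries were nearly equal, and its controls lay far apart. The log2 change was -0.91 ± 0.29 (limma, adjusted p = 0.151), and it was -0.45 without Ctrl 2 and -1.37 without Ctrl 1.

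The spindle genes also had lower values in cKO. Kif11 (ENSMUSG00000012443, chr19:37376403-37421859, plus strand), encoding the kinesin Eg5, had 168 and 253 CPM in Ctrl against 129 and 113 in cKO. The groups did not overlap, and the log2 change was -0.77 ± 0.25 (SE; limma, adjusted p = 0.158), or -0.47 without Ctrl 2. Nusap1 (ENSMUSG00000027306, chr2:119618298-119651244, plus strand) had 104 and 157 CPM in Ctrl against 68.3 and 46.5 in cKO. Its groups were likewise apart, and its log2 change of -1.17 ± 0.30 came nearest to the threshold among the genes not called (limma, adjusted p = 0.0666). Exons of Nusap1 overlap those of Oip5 on the opposite strand.

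Top2a and Mki67, which act on chromosomes, gave the most reads of the 10. Top2a (ENSMUSG00000020914, chr11:98992943-99024189, minus strand), encoding DNA topoisomerase II alpha, had 573 and 686 CPM in Ctrl against 397 and 371 in cKO, from 215 to 535 reads. Its libraries lay closer within groups than between them. The mean was 629 ± 79.7 CPM in Ctrl and 384 ± 18.1 in cKO (SD, n = 2 each), for a log2 change of -0.71 ± 0.21 (SE) and a limma adjusted p of 0.117. Mki67 (ENSMUSG00000031004, chr7:135689784-135716361, minus strand) had 690 and 697 CPM in Ctrl against 474 and 535 in cKO. Of the 10 genes it alone had almost equal controls, and its cKO libraries stood clear of them. Its log2 change was -0.46 ± 0.20 (limma, adjusted p = 0.306).

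**Figure D2:**
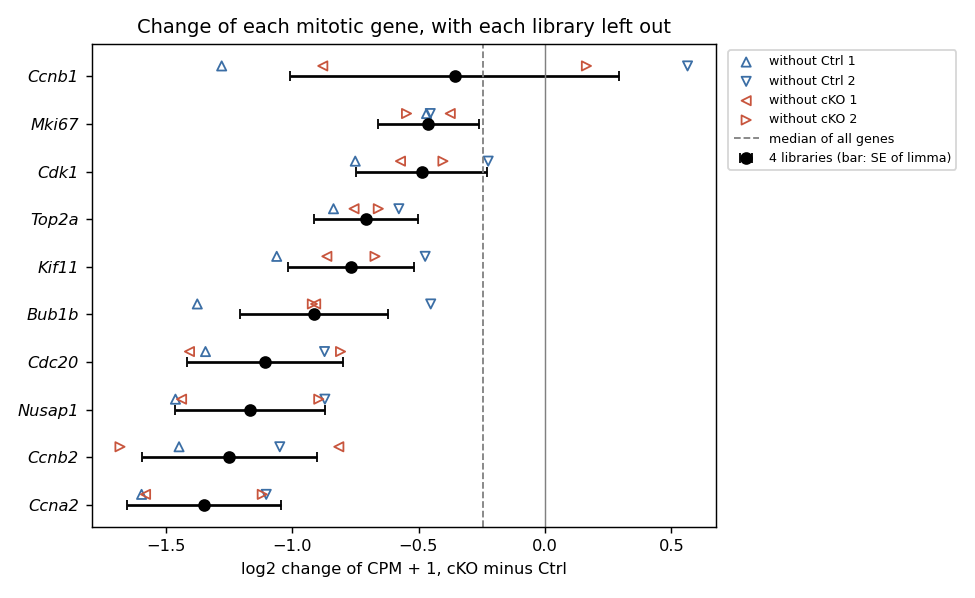
Log2 change of cKO against Ctrl on the log2(CPM + 1) scale (x axis) with its standard error for each gene, beside the median of all genes at -0.245. All 10 points lie left of that median, from Ccna2 at -1.35 to Ccnb1 at -0.36.

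Levels were compared between genes as Ctrl CPM per kilobase of coding sequence. Cdk1 stood highest at 167 CPM per kb, followed by Top2a at 137, Nusap1 at 102 and Ccna2 at 90.8. Mki67 at 72.7, Cdc20 at 72.7, Ccnb2 at 71.9 and Kif11 at 66.7 followed, and Bub1b at 46.8 and Ccnb1 at 12.4 were lowest. The control libraries of neighbours in this order overlapped, except between Top2a (125 and 150) and Nusap1 (81.1 and 123), between Ccna2 (75.3 and 106) and Mki67 (72.4 and 73.1), and between Bub1b (32.2 and 61.4) and Ccnb1 (4.98 and 19.9). In cKO the order was again led by Cdk1 at 117 and Top2a at 83.7, with Mki67 next among them at 52.9, while Ccna2 stood at 35.1 and Ccnb1 at 8.30. Whether the low place of Ccnb1 comes from its shared sequence was not tested. Counted per 1000 stretches of 30 bases found in no other gene, Ccnb1 had 154 CPM in Ctrl and ranked second after Cdk1 at 173, a value that holds only if all its counted reads came from those 104 unshared stretches.

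Ratios of reads within a library do not depend on library size. Ccna2 had 0.781 and 0.764 reads per Cdk1 read in Ctrl, with exact binomial 95% intervals of 0.585 to 1.04 and 0.568 to 1.02. The cKO ratios were 0.467 and 0.378, with intervals of 0.287 to 0.742 and 0.236 to 0.592. Both knockout ratios lay below both control ratios, so the cyclin stood lower relative to its kinase in those libraries. This restates the larger fall of Ccna2 than of Cdk1 given above. With 2 against 2 libraries an exact two-sided permutation test cannot give a p below 0.333, and none was run. The Ccnb2 to Cdk1 ratio was 0.605, 0.555, 0.233 and 0.486 in Ctrl 1, Ctrl 2, cKO 1 and cKO 2, again without overlap but with cKO 2 near the controls. From few Ccnb1 reads, the Ccnb1 to Cdk1 ratio was 0.0526, 0.145, 0.133 and 0.0676 in that order. These groups overlapped, as did those of the Ccnb1 to Ccnb2 ratio, at 0.0870, 0.262, 0.571 and 0.139. For Cdc20 to Bub1b the ratios were 0.895, 0.653, 0.825 and 0.536, and the groups overlapped. The Nusap1 to Kif11 ratio was 0.618 and 0.620 in Ctrl and 0.529 and 0.412 in cKO. Mki67 had 1.20 and 1.02 reads per Top2a read in Ctrl against 1.20 and 1.44 in cKO, and these groups overlapped.

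**Figure D3:**
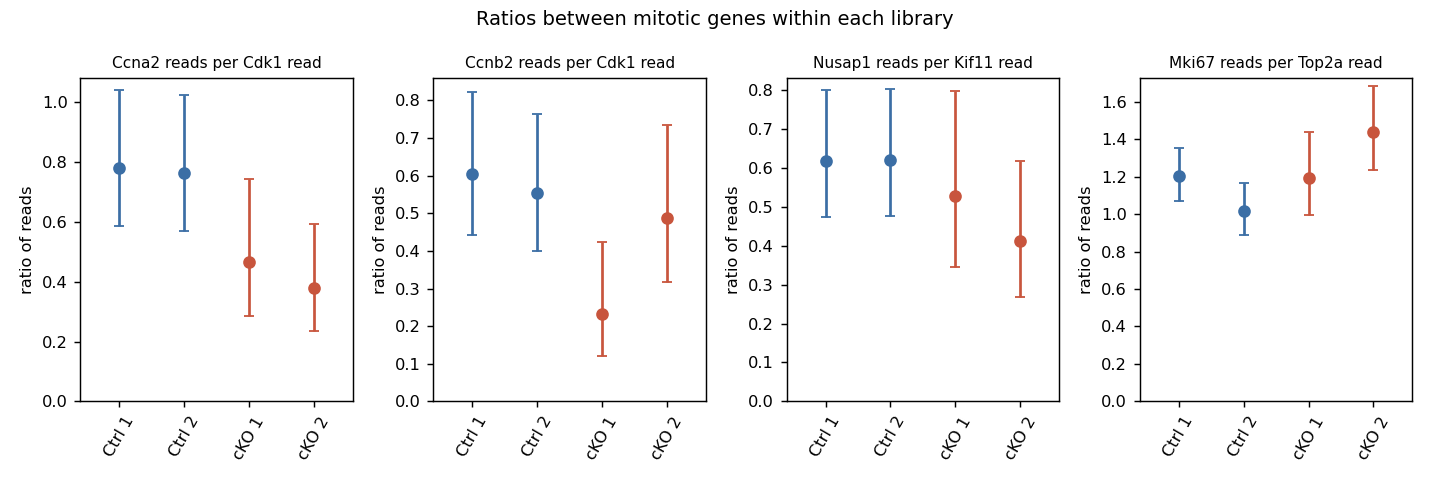
Ratio of reads between pairs of mitotic genes (y axis) in each library (x axis), with exact 95% binomial intervals. The Ccna2 to Cdk1 ratio is 0.781 and 0.764 in Ctrl against 0.467 and 0.378 in cKO, and the Mki67 to Top2a ratios overlap between groups.

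The wider cell cycle machinery was described with 9 lists holding 141 other genes, of which 135 had a row. Limma called 1 of the 135 lower and 0 higher, where 0.300% of all genes were called lower. At an unadjusted p under 0.05, 48 were lower and 0 higher, against 10.8% of all genes lower, and 125 had a negative log2 change, against 67.9% of all genes. Their median log2 change was -0.57, between the -0.84 of the 10 mitotic genes and the -0.245 of all genes. The count of 48 was 20 after median centring, 13 with edgeR and TMM and 2 with DESeq2. Over all genes, 1117, 1119 and 449 had an unadjusted p under 0.05 in either direction in those settings, against 1475 in the main fit. Without Ctrl 1, Ctrl 2, cKO 1 and cKO 2 in turn, the median log2 change of the 135 was -0.60, -0.52, -0.61 and -0.54. All genes had medians of -0.283, -0.224, -0.239 and -0.220 in that order. The gene called was Arpp19, encoding a phosphoprotein that, once phosphorylated by Greatwall kinase, inhibits the phosphatase opposing CDK1. It had 110 and 147 CPM in Ctrl against 48.0 and 59.8 in cKO, and fell by 1.24 ± 0.29 (SE) on the log2 scale, with a limma adjusted p of 0.0433. That p was 0.0906 after median centring, which ended the call. The log2 change of Arpp19 was -1.44 without Ctrl 1 and -1.03 without Ctrl 2, and the call also ended without Ctrl 2. It was -1.08 without cKO 1 and -1.39 without cKO 2. Those 2 fits gave no calls over all genes, so they cannot judge the call of Arpp19.

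By role, the cytokinesis list had 6 of 8 genes lower at an unadjusted p under 0.05, and in all 8 each cKO library was lower than either control, where all genes gave 10.8% and 34.1%. Its most abundant genes, encoding the septins SEPT7 and SEPT9, had log2 changes of -0.38 for Sept7 (limma, adjusted p = 0.448) and -0.60 for Sept9 (limma, adjusted p = 0.284). The spindle motor and microtubule list had 10 of 21 at that level and a median log2 change of -0.61, and the condensin and cohesin list had 9 of 16 and a median of -0.58. Among their most abundant genes, the cohesin subunit Rad21 had a log2 change of -0.68 (limma, adjusted p = 0.142) and the microtubule polymerase gene Ckap5 one of -0.19 (limma, adjusted p = 0.705), and after median centring that of Ckap5 was 0.014. Numa1, encoding a spindle pole protein, had -0.54 (limma, adjusted p = 0.247) and Top2b, encoding the second topoisomerase II, -0.45 (limma, adjusted p = 0.337). The kinetochore and checkpoint list had 8 of 24 and a median of -0.47. There Cenpf, a kinetochore protein, had -0.57 (limma, adjusted p = 0.318), -0.90 without cKO 1 and -0.23 without cKO 2, while Incenp, the scaffold of the Aurora B complex, had -0.12 (limma, adjusted p = 0.890), which turned to 0.093 after median centring. The anaphase-promoting complex list had 4 of 16 and a median of -0.58, and its most abundant subunits differed, as Anapc1 had 228 CPM in Ctrl and 129 in cKO, a log2 change of -0.82 (limma, adjusted p = 0.0945), while Anapc2 had -0.10 (limma, adjusted p = 0.872), or 0.11 after median centring. These counts depended on the scaling and on single libraries. With edgeR and TMM and without Ctrl 2 alike, 1 gene of the cytokinesis list, 2 of the spindle list, 1 of the kinetochore list and 1 of the anaphase-promoting complex list were lower at that level, and the condensin and cohesin list had 2 and 5.

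Earlier phases of the cycle were measured too. The list of G1 and S phase cyclins and kinases had 5 of 11 genes lower at an unadjusted limma p under 0.05, against 10.8% of all genes. The count was 4 after median centring, 1 with edgeR and TMM and 1 with DESeq2. This list had a median log2 change of -0.76. Its abundant D-type cyclins, which drive entry into the cycle, had log2 changes of -0.82 for Ccnd1 (limma, adjusted p = 0.161) and -0.60 for Ccnd2 (limma, adjusted p = 0.182). The entry kinase and phosphatase list, which holds Arpp19, had 3 of 15 and a median of -0.67. The list of transcription regulators had 2 of 16, near the share of all genes, and a median of -0.42. There Rbbp4, a histone-binding subunit of the MuvB complex, had -0.81 (limma, adjusted p = 0.117), and Nfya, encoding a subunit of NF-Y, -0.32 (limma, adjusted p = 0.772). The CDK inhibitors and pocket proteins had 1 of 8, also near that share. Their median was -0.11, which was 0.10 after median centring, -0.42 without Ctrl 2 and -0.39 without cKO 2. Cdkn1a, encoding the inhibitor p21, had 110 and 210 CPM in Ctrl and 157 and 221 in cKO, groups that overlapped (log2 change 0.29; limma, adjusted p = 0.678), and its log2 change was -0.17 without Ctrl 1. Rbl1, encoding the pocket protein p107, had 67.5 and 80.1 CPM in Ctrl and 49.8 and 33.2 in cKO (log2 change -0.84; limma, adjusted p = 0.244).

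**Figure D4:**
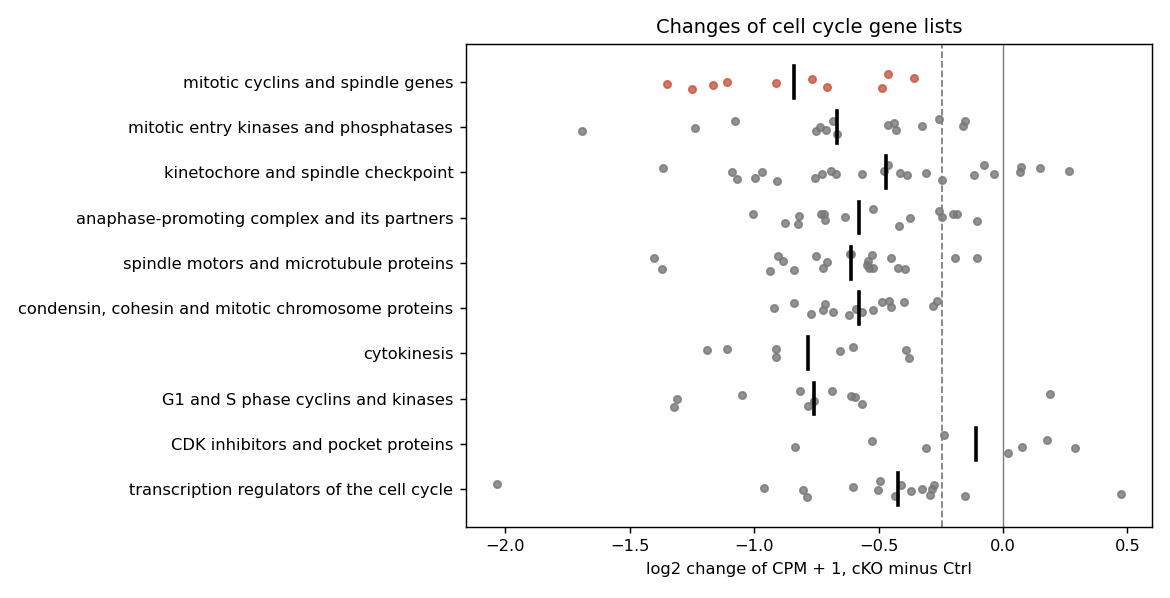
Log2 change of cKO against Ctrl (x axis) for each measured gene of the mitotic genes and the 9 cell cycle lists, with a mark for the median of each. The medians run from -0.84 for the mitotic genes to -0.11 for the CDK inhibitors and pocket proteins, a value that was 0.10 after median centring.

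Keratinocyte markers were plentiful in all 4 libraries, and those of the epidermal layers differed between the groups. Basal markers had lower sums and suprabasal markers higher sums in cKO. The 8 basal keratinocyte markers, of which the keratin gene Krt5 made up 57.8% of the Ctrl sum on average, summed to 23915 and 21422 CPM in Ctrl and to 10895 and 12180 in cKO, and 6 of the 8 were lower in each cKO library than in either control, against 34.1% of all genes. Their median log2 change was -0.76. Within groups the basal sum with Krt5 included and the mitotic sum ran in opposite order. Krt5 alone had 14751 and 11531 CPM in Ctrl, and the mitotic sums in cKO were close, at 1406 and 1370 CPM. The 8 suprabasal markers summed to 136803 and 125803 CPM in Ctrl and to 199938 and 189138 in cKO, and in all 8 each cKO library was higher than either control, against 11.1% of all genes. Per 100 CPM of basal markers the 10 mitotic genes gave 8.47 and 11.9 CPM in Ctrl against 12.9 and 11.2 in cKO, so the groups overlapped. On that scale none of the 10 had both cKO libraries below both Ctrl libraries. Ccna2 had 0.399, 0.628, 0.474 and 0.306 CPM per 100 CPM of basal markers, controls first. With Krt5 left out of the basal sum, a choice made after seeing the data, the 10 genes gave 22.1 and 25.8 CPM in Ctrl against 26.4 and 20.0 in cKO, which overlapped too. Then 2 of the 10, Ccna2 and Ccnb2, had both cKO libraries below both controls, with Ccna2 at 1.04 and 1.36 in Ctrl against 0.972 and 0.543 in cKO. The 9 fibroblast markers summed to 4390 and 2922 CPM in Ctrl and to 1961 and 1500 in cKO. Their median log2 change was -1.12, or -0.33 without Ctrl 1 and -1.55 without Ctrl 2. Limma called 3 of the fibroblast markers lower, against 0.300% of all genes. It also called 1 of the 8 basal markers lower, Krt5 (adjusted p = 0.0293). Of the 8 suprabasal markers it called 1 higher, Ivl (adjusted p = 0.0151), against 0.368% of all genes. Red blood cell markers were at 526 CPM in cKO 1 against 80.1 to 120 in the other libraries. The 4 melanocyte markers summed to 608 to 1194 CPM and 3 leukocyte markers to 136 to 363 CPM, with groups that overlapped. The 4 endothelial markers had no row and were not analysed here. The part of these markers in the result for the mitotic genes was not tested.

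**Figure D5:**
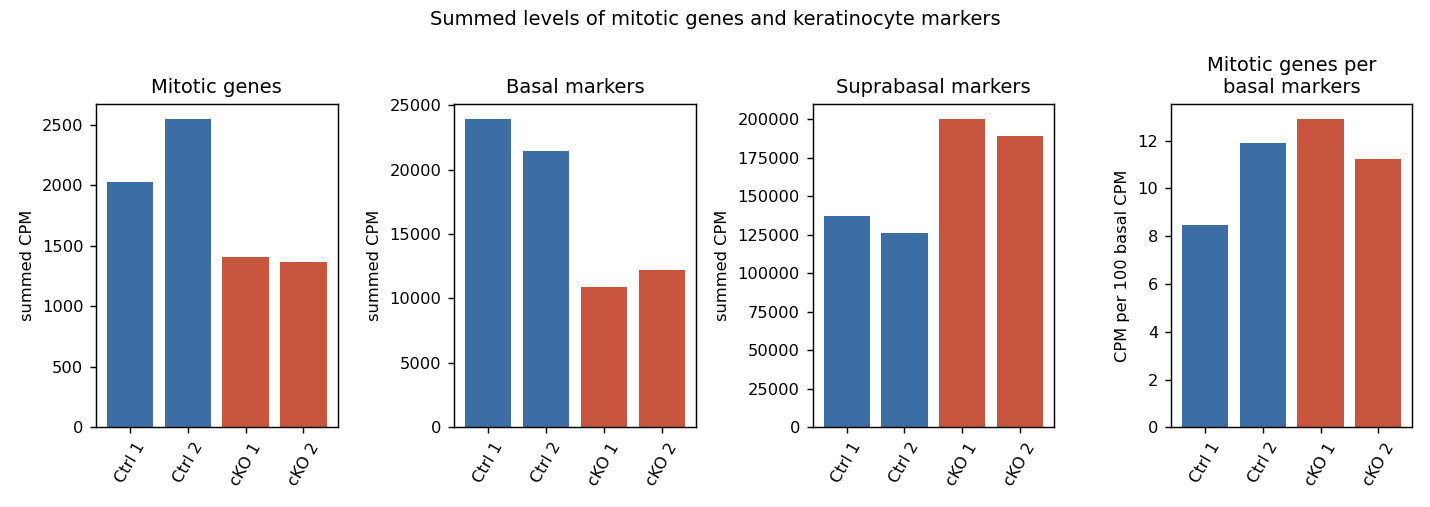
Summed CPM of the 10 mitotic genes and of the basal and suprabasal keratinocyte markers, and the mitotic sum per 100 CPM of basal markers (y axes), in each library (x axis). The mitotic and basal sums are lower in both cKO libraries, the suprabasal sum is higher, and the mitotic sum per basal marker overlaps between groups.

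Among 5155 other genes at or above the median level, the 5 whose profile over the 4 libraries lay closest to the mean profile of the mitotic genes were Ect2, Rara, Cotl1, Hdgf and Ppic. Likeness was measured as the root mean square difference of centred log2(CPM + 1) values, which was 0.0277 for Ect2 and 0.0432 for Ppic, against a median of 0.456. Ect2, a guanine nucleotide exchange factor needed for cytokinesis, had 73.9 and 114 CPM in Ctrl against 51.7 and 45.2 in cKO. Its highest value in Ctrl 2 and similar low values in cKO follow from its choice by likeness to the mitotic genes. Ect2 also stands on the cytokinesis list described above. With only 4 libraries, closeness of profiles is a description.

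The letters GGACT, the most frequent core of the m6A motif in mammals, were searched in the coding sequences, because METTL14 acts on such sites. At least 1 copy was found in 9 of the 10 genes, all but Cdc20, and in 78.3% of 10322 genes with a coding sequence. The median density was 0.838 copies per kb in the mitotic genes and 1.08 over all genes. Mki67 had the most copies, 8, while Ccna2, Ccnb1, Ccnb2 and Kif11 had 1 each. No m6A was measured in these libraries, and a letter match is not a methylated site.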

How the data were processed

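The authors deposited CPM values, reads of a gene per 1000000, for 4 ribosome profiling libraries. Fragments of 25 to 35 nt had been selected, per the labels' protocols. Per the submitters' processing notes, reads were handled with fastp, HISAT2 and HTSeq on build GRCm38, and versions and settings are not given in the sources. Total RNA was not analysed here. Columns headed WT were matched to the Ctrl samples by number. All values were whole multiples of 1 read (100% within 1e-06 reads), so reads were recovered. Of 10327 identifiers, 10323 matched the GENCODE annotation of GRCm38, and exons of 3783 genes overlap another gene's.

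The main test was limma 3.58.1 (R 4.3.3) with trend on log2(CPM + 1), a scale that understates changes of low genes. Group was the only term. The filter (1 CPM in at least 2 libraries) removed 0 genes. Benjamini-Hochberg adjustment ran over all genes, and calls needed an adjusted p under 0.05. Alternatives were other pseudocounts and filters, median centring, edgeR 4.0.16 and DESeq2 1.42.0 on the recovered reads, the replicate block, and leaving out each library. The scripts were tested on simulated data. The genes and lists were chosen with earlier results of these data known. From each list the text names every gene called, or up to 2 of the most abundant, and the 5 genes of most similar profile.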

Additional observations from a re-analysis of the deposited data

How the results depend on the processing

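All 10 mitotic genes had negative log2 changes under every alternative except Ccnb1, which had 0.56 without Ctrl 2 and 0.16 without cKO 2, and -1.28 without Ctrl 1. The median log2 change of the 10 ranged from -1.31 to -0.53 when 1 library was left out. Its other alternatives gave -0.88 to -0.62. The number of the 10 called lower was 1 in the reported analysis, 2 with edgeR on library totals (Nusap1 and Ccna2), 8 with the replicate block, 0 to 3 when 1 library was left out, and 0 with the filter of at least 10 CPM, with median centring, with edgeR and TMM, and with DESeq2. In these last 4 settings, unadjusted p-values under 0.05 were found for 8, 7, 7 and 2 of the 10 in that order. Over all genes tested, 1331, 1117, 1119 and 449 had such a p in either direction, against 1475 in the reported analysis. Ccna2 then had adjusted p-values of 0.0635 and 0.0779 (limma), 0.0620 (edgeR) and 0.193 (DESeq2). DESeq2 gave no adjusted p for Ccnb1, Mettl14 or Nfya. Over the alternatives, the single genes named (the 10, Mettl14 and those named from lists, which were added after seeing the data) gave 315 values that kept direction and side of the threshold, 19 that newly passed it, 14 that no longer passed it and 13 that turned direction. Besides Ccnb1, these were, with median centring, edgeR with TMM and DESeq2 in that order, Anapc2 (0.11, 0.15 and 0.14), Ckap5 (0.014, 0.061 and 0.047) and Incenp (0.093, 0.16 and 0.15), and also Incenp (-0.48 to 0.25) and Cdkn1a (-0.17 to 0.75) when 1 library was left out. Over all genes 69 were called in the reported analysis (38 higher, 31 lower), 23 with the filter of at least 10 CPM, 113 with median centring (105 higher, 8 lower), 176 with edgeR and TMM (163 higher, 13 lower), 118 with edgeR on library totals (62 higher, 56 lower), 87 with DESeq2 (83 higher, 4 lower), 839 with the replicate block and 0 to 139 when 1 library was left out. Without cKO 1 or without cKO 2 limma called 0 genes, with 940 and 928 at an unadjusted p under 0.05. The replicate numbers share no stated source, so the block was not used for the results. Over the 10327 genes, deviations from the group mean had a correlation of 0.195 between Ctrl 1 and cKO 1. With 2 libraries per group, Ctrl 2 and cKO 2 give the same value by construction. Whether same-numbered libraries share a source of variation was not tested. A fit without 1 library leaves an arm of 1, which is assumed to vary like the other group. Depth limits Ccnb1 in particular, with 5 to 16 reads per library. The cause of these differences was not tested.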
